A study of Mus musculus with 2 samples.

Results

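Cells of the 63.3 line, a mouse acute myeloid leukemia line that is grown with beta-estradiol, were compared after 6 h without the hormone and at 0 h. The cells were found by their MULTI-seq call, a lipid-anchored DNA barcode that marks the culture a cell came from. Those of the 6 h culture carried the barcode GTAGCACT (Bar9) and those of the 0 h culture CGACCAGC (Bar10). They numbered 1252 at 6 h and 1353 at 0 h, together 2605 of the 12540 cells that the authors' calls place in 1 of the 10 cultures of the series. Both cultures were grown in RPMI with dialyzed serum, glutamine, 0.5 µM beta-estradiol and stem cell factor from conditioned medium. For withdrawal the cells were washed in PBS and put into medium without estrogen for 6, 12, 24 or 48 h. A second series from the same line received 2 µM brequinar, an inhibitor of the pyrimidine synthesis enzyme dihydroorotate dehydrogenase, for the same times, and had its own 0 h culture. All 10 cultures were barcoded, pooled and loaded on 10x Genomics v3 chemistry in 2 runs.

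Each condition was 1 culture of 1 cell line, so no difference below has a replicate check and no test was run. No culture analysed here was washed and kept with estradiol for 6 h, so the effects of withdrawal, washing and 6 h of culture cannot be told apart. Which protein of the line responds to estradiol is not stated in the labels. Esr1, the gene of the estrogen receptor itself, was low, at 3.65 CPM at 0 h and 6.78 CPM at 6 h. CPM are counts of unique molecular identifiers (UMIs) of spliced RNA per 1000000 of the culture's summed counts. A gene counts as measured from 20 CPM upward in any of the cultures compared. It is called higher or lower at 1.5-fold. A gene at 20 CPM or more in only 1 of the 2 cultures can be called only in the direction of that culture. Intervals in parentheses are exact 95% intervals of the CPM ratio and cover counting error only.

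Acute myeloid leukemia cells are held as immature progenitors by transcription factors such as HOXA9, MEIS1, MYB and MYC, and by growth factor receptors such as KIT. In lines made dependent on a hormone-controlled protein, taking the hormone away releases the cells towards maturation over days. MYC drives the genes of ribosome assembly and nucleotide synthesis. ATF4 is the transcription factor of the integrated stress response, whose targets supply amino acids and charge tRNAs, and FOXO factors act on cell cycle inhibitors and autophagy genes when growth factor signalling is low.

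Summed counts were 18627497 UMIs at 0 h and 12088111 at 6 h, with medians of 15229 and 10695 UMIs per cell. Cells with 10% or more of mitochondrial UMIs made up 16.6% of cells and 2.74% of UMIs at 0 h, and 22.2% of cells and 5.68% of UMIs at 6 h. Without those cells 695 genes were higher and 484 lower at 6 h, close to the counts given below. The pan-leukocyte gene Ptprc (105 and 154 CPM at 0 and 6 h), the myeloid granule gene Mpo (941 and 1019 CPM) and Spi1 (198 and 246 CPM), which encodes PU.1, were present in both cultures. Of the 21 genes of T and NK cells none was measured, and their sum was 5.48 CPM at 0 h and 11.6 CPM at 6 h. Hemoglobin genes were at or near 0. The 0 h cultures of the 2 series, 1 pair of cultures, gave the only measure of the spread between cultures, and whether the brequinar one received solvent is not stated in the labels. Of 5490 genes measured in either, 0% were higher by 1.5-fold and 0.0546% (3 genes: BC100530, Ngp and S100a9) lower in the brequinar one, with an SD of 0.06 on the log2 scale.

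After 6 h of withdrawal 728 of the 5919 measured genes (12.3%) passed the 1.5-fold threshold upward and 480 (8.11%) downward. Each count over a gene list below is to be read beside these shares. The lists were written with earlier results of these data known, so the counts over them are descriptions only. At 2-fold, 201 genes (3.4%) were higher and 110 (1.86%) lower. The median log2 ratio, with a pseudocount of 5 CPM, was 0.06 and its SD 0.45. The share of higher genes among all those called was 60.3%, and it depended on the scaling. It was 49.2% when the median ratio was set to 1, and 70.3% when mitochondrial and ribosomal protein genes were left out of the total. These settings moved the median log2 ratio by -0.07 and 0.06.

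Transcription factors of progenitors were among the lowest genes. Ebf1, which encodes a factor best known from early B cells, stood at 426, 36.9, 24.2, 12.6 and 17.8 CPM at 0, 6, 12, 24 and 48 h of withdrawal. It was thus low at every time after 0 h, 11.6-fold (10.5 to 12.7) lower at 6 h. Hlf, a PAR bZIP factor of blood stem cells, stood at 194, 19.4, 24.4, 17.6 and 21.3 CPM, again low from 6 h on, 10.0-fold (8.78 to 11.5) lower at 6 h. In the brequinar series both stayed close to 0 h at 6 h, Ebf1 at 461 CPM at 0 h and 472 CPM at 6 h and Hlf at 188 CPM at 0 h and 155 CPM at 6 h. Sox4, an HMG box factor that can act with HOXA9 in leukemia, stood at 140.1, 36.3, 52.2, 15.9 and 9.33 CPM. Its 6 h level was 3.86-fold (3.49 to 4.28) lower than at 0 h, and its 12 h level lay between those 2.

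Myc and Myb showed a dip at 6 h. Myc stood at 214, 49.0, 150.1, 163 and 70.4 CPM over the 5 withdrawal cultures, 4.37-fold (4.01 to 4.77) lower at 6 h, with the lowest of the 5 values there. Myb, which keeps progenitors from maturing, stood at 480.0, 178, 339, 383 and 170.2 CPM, 2.70-fold (2.57 to 2.83) lower at 6 h, and was again higher at 12 and 24 h. Kit, the receptor of the stem cell factor in the medium, stood at 121, 49.6, 84.4, 48.5 and 21.9 CPM, 2.43-fold (2.22 to 2.66) lower at 6 h. Gfi1, a repressor that directs granulocyte fate, was 2.41-fold (2.16 to 2.69) lower at 6 h, at 85.5 CPM at 0 h and 35.5 CPM at 6 h. Without a second culture at 6 h, a dip seen at that time alone cannot be told apart from a difference of that 1 culture.

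**Figure D1:**
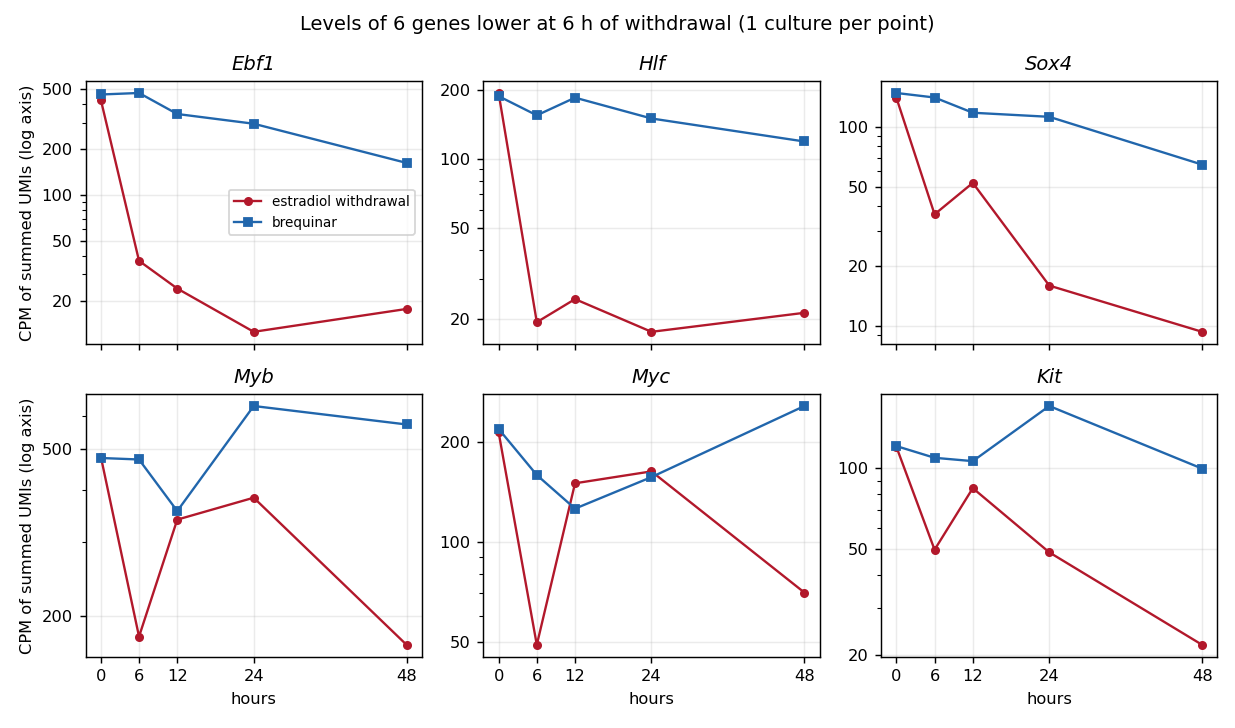
CPM of the summed UMIs (log axis) of Ebf1, Hlf, Sox4, Myb, Myc and Kit against hours of estradiol withdrawal (red circles) or brequinar (blue squares), 1 culture per point. Ebf1 stays below 40 CPM from 6 h of withdrawal on, while Myc has its lowest level of the withdrawal series at 6 h (49.0 CPM) and stands at 150 CPM at 12 h.

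Other genes among the 15 lowest were Angpt1, the growth factor angiopoietin-1 (70.8 CPM at 0 h and 11.3 CPM at 6 h, 6.29-fold [5.27 to 7.56] lower), Rgcc, a regulator of the cell cycle (349 CPM at 0 h and 80.2 CPM at 6 h, 4.35-fold [4.07 to 4.66] lower), and Sdc1, the proteoglycan syndecan-1 (94.2 CPM at 0 h and 20.4 CPM at 6 h, 4.61-fold [4.03 to 5.29] lower). The scaffold gene Dlg2 (3.93-fold [3.63 to 4.26]), the chemokine receptor gene Ccr2 (4.17-fold [3.67 to 4.76]), the peptide receptor gene Calcrl (4.11-fold [3.55 to 4.77]), and the organic cation transporter gene Slc22a3 (3.45-fold [3.01 to 3.96]) were lower too. The chaperone gene Hspa8, Tent5a, a poly(A) polymerase gene, Ms4a3, a gene of granulocyte-monocyte progenitors, and Fkbp11, an ER prolyl isomerase gene, completed the 15, between 2.88 and 3.41-fold lower.

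Not all genes of the progenitor state were lower. The list of HOXA9 and other progenitor transcription factors also holds the RNA-binding protein genes Igf2bp3 and Msi2. Of its 16 measured genes, 5 were lower (Hlf, Sox4, Myb, Etv6 and Igf2bp3) and 3 higher (Runx1, Hoxa9 and Gata2). Beside 0.06 over all measured genes, the list had a median log2 ratio of -0.07. That median ranged from -0.14 to 0.02 over the processing alternatives. Hoxa9, the homeobox gene of many such leukemias, stood at 78.4, 128, 119, 112 and 150.2 CPM, 1.63-fold (1.52 to 1.76) higher at 6 h. Its cofactor gene Meis1 stood at 42.1, 32.9, 28.5, 7.82 and 6.70 CPM, with 0.781 of its 0 h level (0.691 to 0.883) at 6 h and far lower values from 24 h. Runx1 was 1.89-fold (1.68 to 2.12) and Gata2 1.54-fold (1.37 to 1.73) higher. Hmga2, a chromatin protein of fetal and leukemic progenitors, stood at 129, 88.2, 86.7, 32.7 and 9.91 CPM, just short of the threshold at 6 h.

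Progenitor surface and signalling genes were likewise divided: of 14 measured, 3 were lower (Angpt1, Kit and Cd33) and 2 higher (Cd34 and Csf3r), median log2 ratio -0.09. Cd34, the sialomucin that marks progenitors, stood at 138, 258, 211, 20.0 and 12.4 CPM. It was 1.87-fold (1.78 to 1.97) higher at 6 h, the highest of the 5, and low at 24 and 48 h. Flt3, a receptor tyrosine kinase, stood at 89.0, 62.9, 20.8, 5.70 and 6.27 CPM, with 0.707 of its 0 h level (0.648 to 0.771) at 6 h. Igll1, part of the receptor of B cell precursors, stood at 88.5, 36.2, 18.2, 4.94 and 3.50 CPM, 2.45-fold (2.2 to 2.73) lower at 6 h and lower at each later time. Of the 24 B lineage genes 4 were measured: Ebf1 and Igll1 were lower, Cd79b (1.63-fold [1.5 to 1.77]) and Vpreb3 (1.60-fold [1.43 to 1.80]) higher. The defining B cell genes Pax5 and Ms4a1 had 5 counts or fewer in either culture.

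At the other end stood genes of the stress response. Nupr1, a small chromatin-associated stress protein, had the highest ratio of all, at 8.75, 143, 16.5, 5.01 and 11.4 CPM. It was 16.4-fold (14.0 to 19.4) higher at 6 h and below its 0 h level at 24 h. Trib3, a pseudokinase that restrains ATF4, stood at 25.4, 175, 49.1, 30.5 and 13.7 CPM, 6.88-fold (6.23 to 7.62) higher at 6 h, and Ddit3, which encodes the factor CHOP, at 274, 714, 441, 292 and 196 CPM, 2.61-fold (2.52 to 2.70) higher. Each of the 3 genes had its highest level at 6 h. Atf4 itself was 1.66-fold (1.59 to 1.73) higher, at 236 CPM at 0 h and 392 CPM at 6 h.

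Of the 20 genes listed as ATF4, its partners and genes it is known to act on in stress, 12 were measured, 10 of them higher and none lower, with a median log2 ratio of 0.91. Those with the largest ratios after Nupr1 and Trib3 were Gdf15, a secreted stress cytokine (11.5 CPM at 0 h and 37.6 CPM at 6 h, 3.26-fold [2.77 to 3.85]), and Ppp1r15a, the phosphatase subunit that ends the integrated stress response (7.68 CPM at 0 h and 21.6 CPM at 6 h, 2.81-fold [2.29 to 3.47]). Like Nupr1, both were under 20 CPM at 0 h. These 3 genes were thus measured only through the 6 h culture and could not count as lower. All 20 listed genes, measured or not, summed to 1491 CPM at 0 h and 3003 CPM at 6 h. Cebpb, a bZIP factor of both stress and myeloid genes, was 2.14-fold (2.07 to 2.22) higher, at 271 CPM at 0 h and 582 CPM at 6 h. The list also holds the tRNA synthetase gene Cars, which is counted again among the synthetases below. Genes of amino acid supply, several of them known ATF4 targets, went both ways. Of 16 measured genes of amino acid synthesis and one-carbon metabolism 3 were higher and 3 lower, beside 12.3% and 8.11% of all measured genes. The mitochondrial folate enzyme gene Mthfd2 (135 CPM at 0 h and 288 CPM at 6 h, 2.13-fold [2.02 to 2.24]), Aldh18a1 of proline synthesis (1.62-fold [1.47 to 1.78]) and the asparagine synthetase gene Asns (137 CPM at 0 h and 209.5 CPM at 6 h, 1.53-fold [1.45 to 1.62]) were the higher ones, and under median ratio or TMM scaling Asns was at 1.47 and 1.48-fold. The cytosolic serine enzyme gene Shmt1 (2.70-fold [2.37 to 3.08]), the glutamine synthetase gene Glul (1.78-fold [1.49 to 2.14]) and Mthfd1 (1.61-fold [1.45 to 1.79]) were lower.

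The list of aminoacyl-tRNA synthetases, which charge tRNAs, also holds Aimp1 and Eef1e1, partner proteins of their complex. It had 22 measured genes with a median log2 ratio of 0.30. Of these Wars (1.70-fold [1.55 to 1.86]), Cars (1.69-fold [1.51 to 1.90]) and Aars (1.60-fold [1.49 to 1.73]) were higher, and Eef1e1, Rars and Farsa lower. Among all measured genes 12.3% were higher and 8.11% lower, so the share of higher genes in the list lay close to that of all genes. With mitochondrial and ribosomal protein genes left out of the total 5 genes of the list were higher. Amino acid transporters had 2 of 6 measured genes lower, the cystine transporter gene Slc7a11 (2.42-fold [2.19 to 2.67]) and the glutamine transporter gene Slc1a5 (1.65-fold [1.47 to 1.85]), and none higher.

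**Figure D2:**
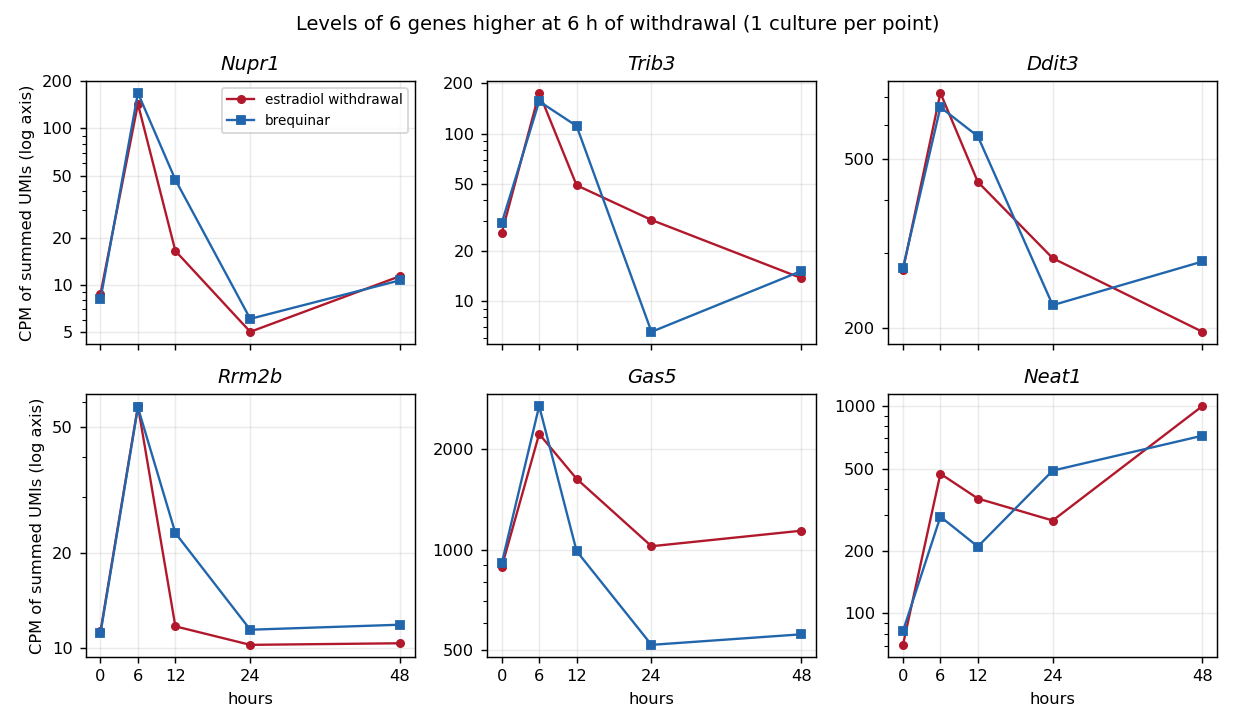
CPM of the summed UMIs (log axis) of Nupr1, Trib3, Ddit3, Rrm2b, Gas5 and Neat1 against hours of estradiol withdrawal (red circles) or brequinar (blue squares), 1 culture per point. Nupr1, Trib3, Ddit3 and Rrm2b peak at 6 h in the withdrawal series, and Nupr1 is back to 16.5 CPM at 12 h, while Neat1 stands highest at 48 h.

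The promoters of 3 of the 15 highest genes held the letters TGATGNAA, the core of the composite element read by ATF4 with C/EBP partners such as CHOP, on either strand. They are shown here because these genes had the largest ratios of those with a match. The windows run from 250 bases before to 50 after the start of transcription, in RefSeq's annotation of GRCm38.p6, read 5′ to 3′ on the strand of the gene, with the match in capitals. The match begins 110 bases before the start in Nupr1 (chr7:126625421-126625720, minus strand), 14 bases after it in Trib3 (chr2:152344011-152344310, minus strand) and 33 bases before it in Jdp2 (chr12:85599166-85599465, plus strand; 1 of its 3 windows). In Nupr1 and Trib3 the letters lie on the other strand.
Nupr1: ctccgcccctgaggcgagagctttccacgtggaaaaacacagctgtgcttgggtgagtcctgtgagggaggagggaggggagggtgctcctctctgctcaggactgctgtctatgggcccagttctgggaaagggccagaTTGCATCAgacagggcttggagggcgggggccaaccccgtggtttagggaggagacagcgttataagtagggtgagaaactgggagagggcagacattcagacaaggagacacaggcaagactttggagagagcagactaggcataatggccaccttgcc
Trib3: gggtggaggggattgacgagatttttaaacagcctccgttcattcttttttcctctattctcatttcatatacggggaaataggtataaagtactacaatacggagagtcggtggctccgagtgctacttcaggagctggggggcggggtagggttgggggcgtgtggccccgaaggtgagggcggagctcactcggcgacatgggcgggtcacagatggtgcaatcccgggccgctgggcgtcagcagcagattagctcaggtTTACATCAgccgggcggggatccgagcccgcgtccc
Jdp2: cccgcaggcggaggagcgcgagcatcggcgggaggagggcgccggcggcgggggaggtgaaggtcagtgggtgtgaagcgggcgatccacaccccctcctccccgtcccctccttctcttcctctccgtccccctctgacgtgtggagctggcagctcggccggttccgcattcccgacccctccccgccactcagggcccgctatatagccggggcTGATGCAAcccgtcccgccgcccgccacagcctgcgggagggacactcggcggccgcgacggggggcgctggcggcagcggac

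Such a match was found for 4.51% of the 27025 genes in the table, 2.81% of measured genes, 5.06% of the higher and 3.05% of the lower ones. Of the 10 genes among the 15 highest with a window, 3 held one (30%). Of 14 measured genes of the tRNA synthetase list with a window 5 did (35.7%: Aars, Gars, Iars, Tars and Yars), and so did Asns and Got1. Only Aars and Asns of these were called higher, and the others stood between 1.12 and 1.49-fold. A match describes letters and not binding, and it was found also in Calcrl, among the 15 lowest.

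The remaining highest genes were of several kinds. Ffar2, a receptor of short-chain fatty acids, stood at 14.6, 122, 169, 138 and 103 CPM, 8.38-fold (7.36 to 9.58) higher at 6 h and high from then on. Mreg, a gene of lysosome and melanosome transport (4.43-fold [3.95 to 4.98]), the kinesin gene Kif5a (5.10-fold [4.32 to 6.05]), Ptpn22, a phosphatase of leukocytes (4.75-fold [4.1 to 5.53]), and Jdp2, an AP-1 family repressor (3.90-fold [3.52 to 4.31]), were higher. The estradiol-producing enzyme gene Hsd17b1 stood at 42.8 CPM at 0 h and 157 CPM at 6 h, 3.67-fold (3.38 to 4.00), and Ttc25, a cilia gene, at 12.1 CPM at 0 h and 51.8 CPM at 6 h, 4.29-fold (3.68 to 5.02). Acot2, a mitochondrial acyl-CoA thioesterase, was 3.47-fold (3.21 to 3.75) higher. Its near-identical neighbour Acot1 stood at 0.690 of its 0 h level (0.626 to 0.760), and how reads shared by the 2 genes were counted is not given in the sources used here.

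FOXO targets were more often higher than lower. Of the 18 measured 11 were higher and none lower, with a median log2 ratio of 0.75. Members under 20 CPM at 0 h, such as Rrm2b and Cdkn1b, were measured only through the 6 h culture and could not count as lower. All 29 listed genes, measured or not, summed to 959 CPM at 0 h and 1388 CPM at 6 h. Rrm2b, a ribonucleotide reductase subunit that is also a p53 target, stood at 11.3, 58.1, 11.7, 10.2 and 10.3 CPM, 5.15-fold (4.41 to 6.04) higher at 6 h and near its 0 h level at every later time. Ypel3, a gene that slows growth (27.5 CPM at 0 h and 115 CPM at 6 h, 4.19-fold [3.78 to 4.64]), the stress sensor gene Gadd45a (57.7 CPM at 0 h and 190.4 CPM at 6 h, 3.30-fold [3.07 to 3.55]) and Cdkn1b, which encodes the CDK inhibitor p27 (13.3 CPM at 0 h and 42.6 CPM at 6 h, 3.21-fold [2.76 to 3.75]), followed. Targets of p53 were less uniform: of 9 measured, Rrm2b, Bbc3 and Pmaip1 were higher and Xpc lower. The p53 targets Cdkn1a (19.0 CPM at 0 h and 24.1 CPM at 6 h) and Mdm2 (35.8 CPM at 0 h and 45.3 CPM at 6 h) were both at 1.27-fold, under the threshold. Bbc3 (14.5 CPM at 0 h and 48.5 CPM at 6 h, 3.34-fold [2.89 to 3.88]) and Pmaip1 (1.68-fold [1.42 to 1.99]) encode the killer proteins PUMA and NOXA of the BCL2 family, of which 3 of 10 measured genes were higher, Bnip3l being the third. The survival gene Bcl2 was 1.94-fold (1.70 to 2.23) lower, at 45.5 CPM at 0 h and 23.4 CPM at 6 h.

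Lysosome and autophagy genes were higher for 7 of 19 measured and lower for none, median log2 ratio 0.43, beside 12.3% and 8.11% of all measured genes. The autophagy receptor gene Sqstm1 stood at 59.3, 217, 121, 72.1 and 95.4 CPM, 3.66-fold (3.41 to 3.93) higher at 6 h with its highest level there. The progranulin gene Grn (1.83-fold [1.64 to 2.05]) and Fnip1, a folliculin partner (1.66-fold [1.44 to 1.92]), were higher too. Of 22 measured genes of ER chaperones and the unfolded protein response, 5 were higher, led by the sensor gene Atf6 (2.59-fold [2.23 to 3.01]) and the ER degradation genes Edem1 (2.34-fold [2.21 to 2.48]) and Herpud1 (2.04-fold [1.91 to 2.19]), and 1, Sdf2l1, was lower.

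Of the 30 measured MYC targets 21 were lower and none higher, median log2 ratio -0.74. Gnl3, a nucleolar GTPase, stood at 251 CPM at 0 h and 101 CPM at 6 h, 2.48-fold (2.33 to 2.65) lower, the spermidine synthase gene Srm at 535 CPM at 0 h and 225 CPM at 6 h, 2.38-fold (2.28 to 2.48) lower, and the nucleolar chaperone gene Nolc1 at 437 CPM at 0 h and 185 CPM at 6 h, 2.36-fold (2.25 to 2.47) lower. Over the later cultures Srm stood at 226, 391 and 76.2 CPM at 12, 24 and 48 h. Within the MYC network only Myc itself passed the threshold. Its partner gene Max (0.708 of its 0 h level [0.648 to 0.773]) and the antagonist genes Mxd4 (1.32 of its 0 h level [1.17 to 1.49]) and Mxi1 (1.36 of its 0 h level [1.21 to 1.53]) did not.

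Ribosome biogenesis genes, a list that shares members with the MYC targets, were lower for 21 of 37 measured and higher for none, median log2 ratio -0.66. Rrs1, an assembly factor of the large subunit (2.36-fold [2.2 to 2.52]), and Polr1b, a subunit of RNA polymerase I (2.32-fold [1.87 to 2.90]), stood lowest after Gnl3 and Nolc1. The genes of the ribosomal proteins themselves lay on the other side: all 36 measured were above their 0 h level (34 under median ratio scaling, 35 under TMM scaling or as a mean over cells), between 1.03 and 1.37-fold and so none past the threshold, with a median log2 ratio of 0.27. All 40 listed ribosomal protein genes, measured or not, summed to 68619 CPM at 0 h and 82817 CPM at 6 h. Nucleotide synthesis genes were lower for 14 of 30 measured and higher for none, median log2 ratio -0.45. The purine genes Gart (54.6 CPM at 0 h and 25.5 CPM at 6 h, 2.14-fold [1.88 to 2.44]) and Ppat (2.04-fold [1.90 to 2.19]), the pyrimidine gene Umps (202 CPM at 0 h and 96.0 CPM at 6 h, 2.10-fold [1.97 to 2.25]) and the deaminase gene Dctd (2.12-fold [1.88 to 2.38]) stood lowest. Dhodh, the gene of the enzyme that brequinar blocks, stood at 24.2 CPM at 0 h and 15.5 CPM at 6 h, 1.56-fold (1.31 to 1.86) lower.

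Cytosolic heat shock chaperones were lower for 10 of 23 measured and higher for 1 (Dnajb4), median log2 ratio -0.44. Hspa8, the constitutive HSP70, stood at 354, 108, 205, 208 and 136 CPM, 3.27-fold (3.08 to 3.47) lower at 6 h with its lowest level there. Hsph1, a nucleotide exchange factor of HSP70, was 2.59-fold (2.34 to 2.87), the inducible HSP90 gene Hsp90aa1 2.14-fold (2.06 to 2.23) and its activator gene Ahsa1 2.12-fold (1.98 to 2.28) lower, while Hsp90ab1 stood at 0.998 of its 0 h level (0.989 to 1.01). Cholesterol and fatty acid synthesis genes were lower for 7 of 20 measured, median log2 ratio -0.37, among them the sterol carrier gene Stard4 (1.87-fold [1.61 to 2.18]) and Acat2 (1.82-fold [1.56 to 2.12]). Hmgcs1, an early enzyme of the same pathway, was 1.64-fold (1.52 to 1.77) higher.

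An E box, CACGTG, the letters that MYC with MAX reads, lay in the windows of 9 of the 25 measured MYC targets with a window (36%) and of 7 of the 32 ribosome biogenesis genes (21.9%), beside 13.2% of measured genes and 8.09% of all genes in the table. The heat shock pair GAANNTTC, 2 inverted units of the heat shock element, lay in 7 of 17 chaperone genes (41.2%), beside 6.57% of measured genes and 9.04% of all. Among all lower genes with a window the E box lay in 16.0% and the pair in 6.87%. Among all higher genes the shares were 13.7% and 5.40%, so both groups lay near the measured genes. Wdr43, a ribosome biogenesis gene that was 1.84-fold (1.71 to 1.97) lower, and Hsph1 are shown as 1 example of each, chosen after the matches were seen. The E box begins 17 bases after the start of Wdr43 (chr17:71615965-71616264, plus strand) and the pair 41 bases after that of Hsph1 (chr5:149636287-149636586, minus strand; 1 of its 2 windows, both of which hold it), with the matches in capitals.
Wdr43: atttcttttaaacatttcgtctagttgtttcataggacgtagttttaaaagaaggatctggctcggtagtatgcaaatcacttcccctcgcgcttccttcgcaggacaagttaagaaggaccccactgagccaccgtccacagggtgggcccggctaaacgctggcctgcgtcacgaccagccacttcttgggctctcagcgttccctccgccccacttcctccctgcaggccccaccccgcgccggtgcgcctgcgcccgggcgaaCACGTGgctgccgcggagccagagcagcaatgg
Hsph1: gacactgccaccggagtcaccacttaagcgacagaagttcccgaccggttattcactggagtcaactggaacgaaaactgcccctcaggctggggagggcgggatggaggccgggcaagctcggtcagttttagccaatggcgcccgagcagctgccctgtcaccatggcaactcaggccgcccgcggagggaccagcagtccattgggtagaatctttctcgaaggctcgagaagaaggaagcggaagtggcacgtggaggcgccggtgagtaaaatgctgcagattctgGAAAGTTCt

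**Figure D3:**
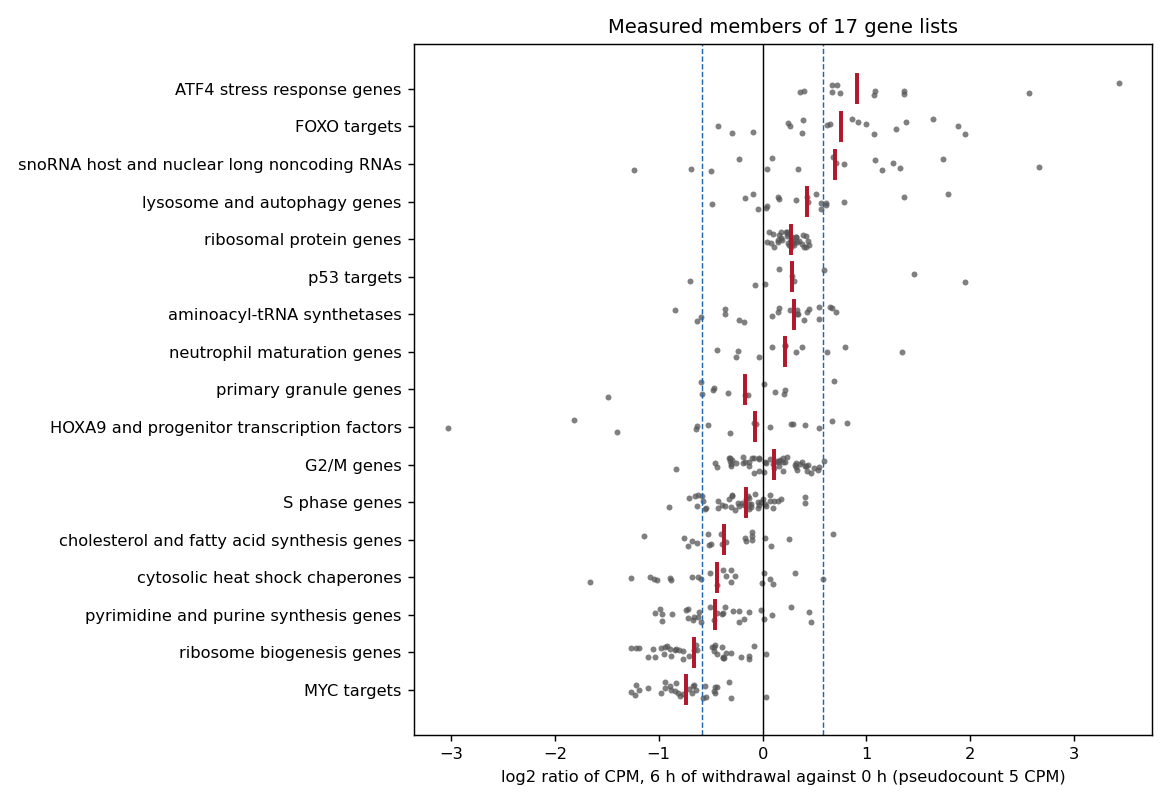
Log2 ratio of CPM, 6 h of withdrawal against 0 h (pseudocount 5 CPM), for each measured member (grey points) of 17 gene lists, with the median of each list (red bar) and the 1.5-fold thresholds (dashed lines). The median is highest for the ATF4 stress response genes (0.91) and lowest for MYC targets (-0.74), and all ribosomal protein genes lie between 0 and the upper threshold (34 of 36 under median ratio scaling).

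Long noncoding RNAs passed the threshold more often than coding genes, a difference given here without a test: 33 of the 97 measured long noncoding genes (34.0%) were higher and 12 (12.4%) lower, beside 11.9% and 8.06% of the 5804 protein coding genes. With predicted and unnamed gene models left out, Neat1 had the highest ratio among the long noncoding genes. The small nucleolar RNA hosts Snhg12, Gas5, Snhg1 and Zfas1 followed. The spliced RNAs of many such hosts are short-lived because translation exposes them to nonsense-mediated decay. Of the 16 measured members of the list of such hosts and of nuclear long noncoding RNAs, 9 were higher and 2 lower, median log2 ratio 0.70. The nuclear RNAs in it include Neat1 and Malat1, the latter at 1367 CPM at 0 h and 2906 CPM at 6 h and named here after its value was seen. Gas5 stood at 887, 2223, 1631, 1023 and 1139 CPM, 2.51-fold (2.46 to 2.56) higher at 6 h, Snhg1 at 443, 1068, 342, 458 and 247 CPM, 2.41-fold (2.34 to 2.48) higher, and Snhg12 at 47.0, 169, 61.7, 46.5 and 36.7 CPM, 3.60-fold (3.32 to 3.90) higher. All 3 had their highest level of the withdrawal series at 6 h. Neat1, the scaffold RNA of paraspeckles, stood at 70.5, 472, 358, 281 and 1002 CPM, 6.69-fold (6.30 to 7.11) higher at 6 h and high throughout. The host genes Mir17hg (3.12-fold [2.53 to 3.87]), of the miR-17 cluster, and Snhg15 (1.69-fold [1.53 to 1.86]) were lower.

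Cell cycle genes differed less than these groups. For all measured genes the shares were 12.3% higher and 8.11% lower. Of 45 measured S phase genes 8 were lower and none higher, median log2 ratio -0.16, led by the ribonucleotide reductase gene Rrm2 (379 CPM at 0 h and 200.1 CPM at 6 h, 1.89-fold [1.81 to 1.98]), the cyclin E gene Ccne1 (1.70-fold [1.48 to 1.96]), Gins1 (1.68-fold [1.45 to 1.96]) and Exo1 (1.68-fold [1.45 to 1.96]). The replication clamp gene Pcna stood at 110.2 CPM at 0 h and 74.1 CPM at 6 h, just short of the threshold. Of 52 measured G2/M genes 1 was higher (Nusap1) and 1 lower (Tubb4b), and the proliferation gene Mki67 stood at 123 CPM at 0 h and 145 CPM at 6 h. Among 17 measured cyclins, CDKs and inhibitors of G1, the higher ones were the brakes Rb1 (5.15 CPM at 0 h and 22.2 CPM at 6 h, 4.30-fold [3.40 to 5.49]), Cdkn1b and Cdkn2d (1.87-fold [1.74 to 2.00]). Rb1 and Cdkn1b were too low at 0 h to count as measured there. They were measured only through the 6 h culture and could not count as lower. The lower genes of the list were Cdk6 (1204 CPM at 0 h and 704 CPM at 6 h, 1.71-fold [1.67 to 1.75]), Ccne1 and the cyclin D2 gene Ccnd2 (1.51-fold [1.38 to 1.65]). The ratio of Ccnd2 lies at the threshold and was short of it as a mean over cells and without mitochondrial and ribosomal protein genes in the total.

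Phase scores were taken in cells thinned to 3000 UMIs, 1142 cells at 0 h and 1012 at 6 h. Cells with neither score above 0, called G1-like, were 2.80% (exact 95% interval 1.92 to 3.93) at 0 h and 19.6% (17.2 to 22.1) at 6 h. The S class held 47.4% of cells at 0 h and 36.2% at 6 h, and the G2/M class 49.8% and 44.3%. Cells close to the boundary were 4.90% and 11.6%. With cells weighted to the 0 h shares 705 genes were higher and 451 lower, and 3 S phase genes were lower. Ebf1 was at 0.130, 0.0874 and 0.0819 of its 0 h level within G1-like, S and G2/M cells, Myc at 0.167, 0.253 and 0.210, and Nupr1 was 15.4, 15.6 and 17.3-fold higher. Of the ATF4 stress response genes 9, 10 and 9 were higher within the 3 classes, and of the MYC targets 19, 21 and 20 were lower. The list of small nucleolar RNA hosts and nuclear long noncoding RNAs was less even. Of its 16 measured genes 6, 7 and 9 were higher and 3, 3 and 1 lower, with median log2 ratios of 0.17, 0.44 and 0.75. Over all 5919 measured genes 1091, 764 and 747 were higher and 814, 505 and 459 lower in the same classes. Only 32 cells at 0 h were G1-like, so the values in that class are the least precise.

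Genes of myeloid maturation were mixed at this time. Of 12 measured genes of neutrophil maturation 3 were higher (Lcn2, Chil3 and Csf3r), median log2 ratio 0.21, beside 12.3% higher among all measured genes. With a floor of 10 CPM 6 members were higher. Lcn2, a granule protein that binds siderophores, stood at 167, 430.1, 387, 358 and 6548 CPM, 2.58-fold (2.46 to 2.69) higher at 6 h. The calprotectin genes S100a8 (72.2 CPM at 0 h and 95.1 CPM at 6 h) and S100a9 (83.6 CPM at 0 h and 81.7 CPM at 6 h) were under the threshold. The 3 genes that differed by 1.5-fold between the 0 h cultures all belong to this list, lower in the brequinar one. Against that culture 7 members were higher, and the list's median ranged from -0.18 to 0.58 over the alternatives. Of 13 measured primary granule genes 3 were lower (Ms4a3, Clec12a and Prtn3) and 1 higher (Gstm1). Against the other 0 h culture 1 was lower. The elastase gene Elane stood at 41.6 CPM at 0 h and 28.5 CPM at 6 h and Mpo at 941 CPM at 0 h and 1019 CPM at 6 h.

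Among the factors of the myeloid lineage, Id2, an inhibitor of basic helix-loop-helix proteins, stood at 5.69, 25.6, 21.0, 28.9 and 252 CPM, 4.49-fold (3.59 to 5.66) higher at 6 h and far higher at 48 h. Cebpb and Runx1 were higher, as given above, and so was Cebpg (1.73-fold [1.60 to 1.87]). Spi1 (1.24 of its 0 h level [1.18 to 1.31]), Cebpa (0.858 of its 0 h level [0.776 to 0.948]) and Cebpe (0.842 of its 0 h level [0.784 to 0.904]), the regulators of granulocyte maturation, were within the threshold, and Irf8, the monocyte factor, had 5 and 4 counts. Monocyte genes went both ways: Fcgr1 (10.3 CPM at 0 h and 27.3 CPM at 6 h, 2.65-fold [2.21 to 3.18]) and Lgals3 (2.09-fold [1.74 to 2.52]) were higher, Ccr2 and Ccl9 (464 CPM at 0 h and 251 CPM at 6 h, 1.85-fold [1.77 to 1.93]) lower, of 8 measured. The iron uptake receptor gene Tfrc (1.98-fold [1.84 to 2.14]) and Car2 (2.22-fold [2.07 to 2.38]), counted among erythroid genes, were lower. The 6 measured genes of eosinophils, mast cells and basophils held 1 higher (Gata2) and 1 lower (Mcpt8), with Prg2 at 631 CPM at 0 h and 813 CPM at 6 h.

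Signalling genes were mixed. The counts here stand beside 12.3% higher and 8.11% lower among all measured genes. Of 12 measured feedback genes of KIT and cytokine signalling, Pim1, a kinase induced by STAT5, stood at 147, 389, 891, 951 and 557 CPM, 2.64-fold (2.52 to 2.77) higher at 6 h and higher still at 12 and 24 h. Stat5b was 1.84-fold (1.55 to 2.18) higher. The ERK feedback genes Dusp6 (81.0 CPM at 0 h and 37.6 CPM at 6 h, 2.15-fold [1.94 to 2.39]) and Spry2 (1.51-fold [1.39 to 1.64]) were lower, and so were Pim3 (1.76-fold [1.46 to 2.14]) and Ccnd2. Of 8 measured targets of ID and SMAD signalling 5 were higher, led by Id2 and Skil (51.6 CPM at 0 h and 112 CPM at 6 h, 2.17-fold [2.00 to 2.36]). Immediate early genes were higher for 5 of 13 measured (Zfp36l1, Klf6, Dusp2, Fos and Jund) and lower for 3 (Myc, Dusp6 and Spry2). Glycolysis and hypoxia genes were higher for 4 and lower for 6 of 23, with Ndrg1 at 3.13-fold (2.51 to 3.93) higher and the lactate transporter gene Slc16a3 2.53-fold (2.10 to 3.08) lower. Of 6 measured genes listed as estrogen receptor targets from other tissues, Ncoa3 (2.14-fold [1.92 to 2.39]) and Xbp1 (1.55-fold [1.40 to 1.71]) were higher, Nrip1 (1.84-fold [1.64 to 2.08]) and Igf1r (1.52-fold [1.32 to 1.74]) lower. In the NF-kB list Rel (2.73-fold [2.38 to 3.14]), Nfkbiz and Nfkb1 were higher of 6, and neither of the 2 measured of 26 interferon response genes passed the threshold.

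The lists were also counted cell by cell at equal depth. Per 3000 UMIs the median cell held 4 UMIs of ATF4 stress response genes at 0 h and 9 at 6 h, and 90.4% of 6 h cells lay above the 0 h median. For the list of small nucleolar RNA hosts and nuclear long noncoding RNAs, Malat1 and Neat1 included, the medians were 14 and 26 UMIs, with 95.4% of 6 h cells above the 0 h median. MYC targets had medians of 59 and 42 UMIs with 93.8% of 6 h cells below the 0 h median, and ribosome biogenesis genes 40 and 28 UMIs with 92.0% below. The shifts thus lay in most cells of the 6 h culture. Ebf1 was seen in 64.3% of thinned cells at 0 h and 8.89% at 6 h (unthinned 91.1% and 25.6%), and Nupr1 in 2.54% and 30.6% (unthinned 9.02% and 51.9%). All cells are of 1 line, so no cell type that lacks these genes sets the level of free RNA, and its part in these shares was not tested. In barcodes of 2 to 100 UMIs the levels were 179 CPM for Ebf1 and 59.8 CPM for Nupr1. When 5% of the counts were taken out in the proportions of that profile Ebf1 stood at 0.0670 of its 0 h level and Nupr1 at 24.4-fold.

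**Figure D4:**
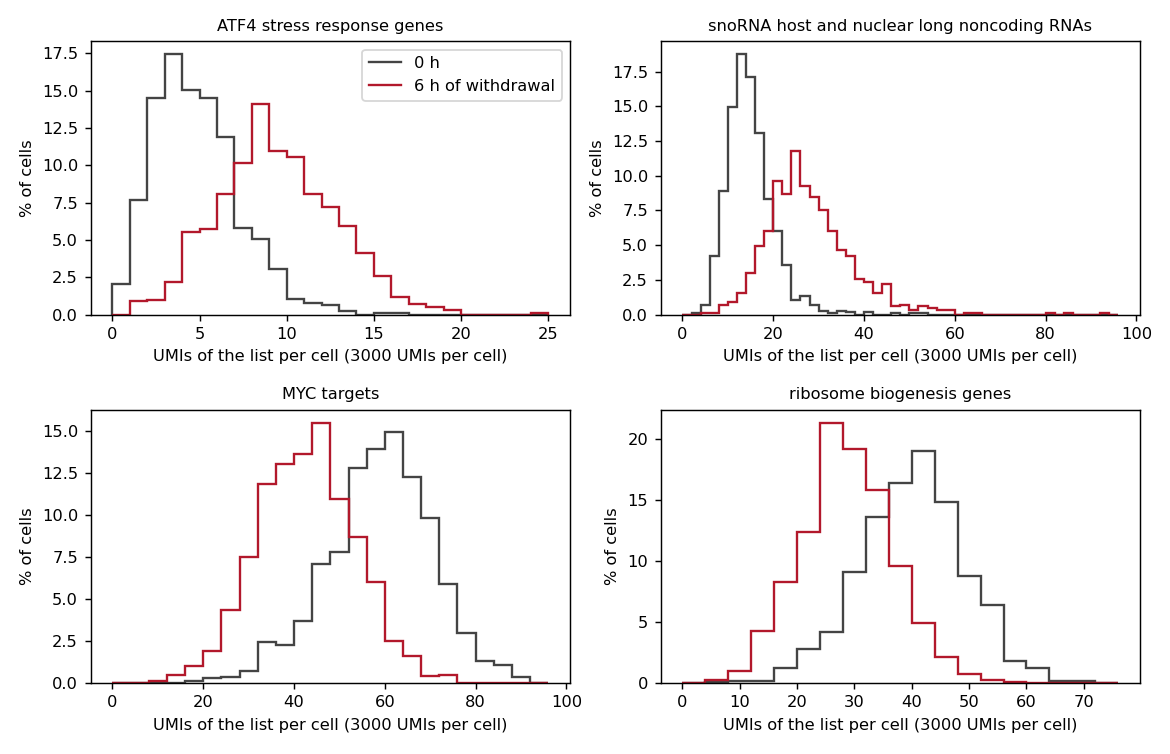
Share of cells (%) against the UMIs of a list per cell, in cells thinned to 3000 UMIs, at 0 h (grey, 1142 cells) and after 6 h of withdrawal (red, 1012 cells), for 4 lists. The medians are 4 and 9 UMIs for ATF4 stress response genes, 14 and 26 for small nucleolar RNA hosts and nuclear long noncoding RNAs (Malat1 and Neat1 included), 59 and 42 for MYC targets and 40 and 28 for ribosome biogenesis genes.

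Brequinar at 6 h, set against its own 0 h culture, gave the closest comparison with no shared culture. Of 5851 genes measured there, 8.82% were higher and 4.97% lower by the same threshold. The log2 ratios of both treatments had a Pearson correlation of 0.84 and a Spearman correlation of 0.85 across 6023 genes, which share the pool, the runs and the base levels of 1 line. Of the 728 genes higher after withdrawal 412 (56.6%) were higher with brequinar too, and of the 516 higher with brequinar 392 (76.0%) were higher after withdrawal. For the lower genes the shares were 210 of 480 (43.8%) and 209 of 291 (71.8%). In each case a gene had to be measured only in the series named first. Nupr1 stood at 8.08 CPM at 0 h and 169 CPM at 6 h with brequinar, Trib3 at 29.2 CPM at 0 h and 156 CPM at 6 h, Rrm2b at 11.1 CPM at 0 h and 57.5 CPM at 6 h, Snhg12 at 49.3 CPM at 0 h and 309 CPM at 6 h and Hspa8 at 362 CPM at 0 h and 116 CPM at 6 h, on the same side as after withdrawal. The list values with brequinar, here and below, cover the members measured in the withdrawal cultures, with no floor in the brequinar ones. Members of the ATF4 list were higher in 10 of 12 cases with a median log2 ratio of 1.01, those of the FOXO list in 10 of 18 (0.55) and those of the list of small nucleolar RNA hosts and nuclear long noncoding RNAs, Neat1 and Malat1 included, in 10 of 16 (0.91). MYC targets were lower in 9 of 30 (-0.43), ribosome biogenesis genes in 10 of 37 (-0.40) and chaperones in 9 of 23 (-0.39).

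Both progenitor lists had nearly equal medians in the 2 treatments, -0.07 after withdrawal and with brequinar for the HOXA9 list and -0.09 in both for the surface list, while single genes differed. The difference of the log2 ratios, withdrawal minus brequinar, was -1 or less for 28 genes and 1 or more for 2, and within 1.5-fold for 97.7% of the 6023. Most of the 6023 passed the 1.5-fold threshold in neither treatment, so that share says little about the genes that did. The genes named in this comparison were chosen after their values were seen. The lowest differences were those of Ebf1 (-3.40), Hlf (-2.76) and Sdc1 (-2.31), followed by Dab2, Cd69, Sox4, Ptafr and Myc (-1.57). Sox4 with brequinar stood at 148 CPM at 0 h and 140.3 CPM at 6 h, Myb at 476 CPM at 0 h and 472 CPM at 6 h, Kit at 121 CPM at 0 h and 109.6 CPM at 6 h and Gfi1 at 88.7 CPM at 0 h and 86.3 CPM at 6 h, each near its 0 h level. Flt3 (90.8 CPM at 0 h and 189.7 CPM at 6 h) and Meis1 (41.6 CPM at 0 h and 79.0 CPM at 6 h) were higher with brequinar. Cd34 was higher in both series, at 141 CPM at 0 h and 337 CPM at 6 h with brequinar. The 2 genes on the other side were Pim1, at 140.2 CPM at 0 h and 136 CPM at 6 h with brequinar, and Mreg, at 22.5 CPM at 0 h and 45.8 CPM at 6 h. None of these differences was tested, since each series has 1 culture at 6 h.

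**Figure D5:**
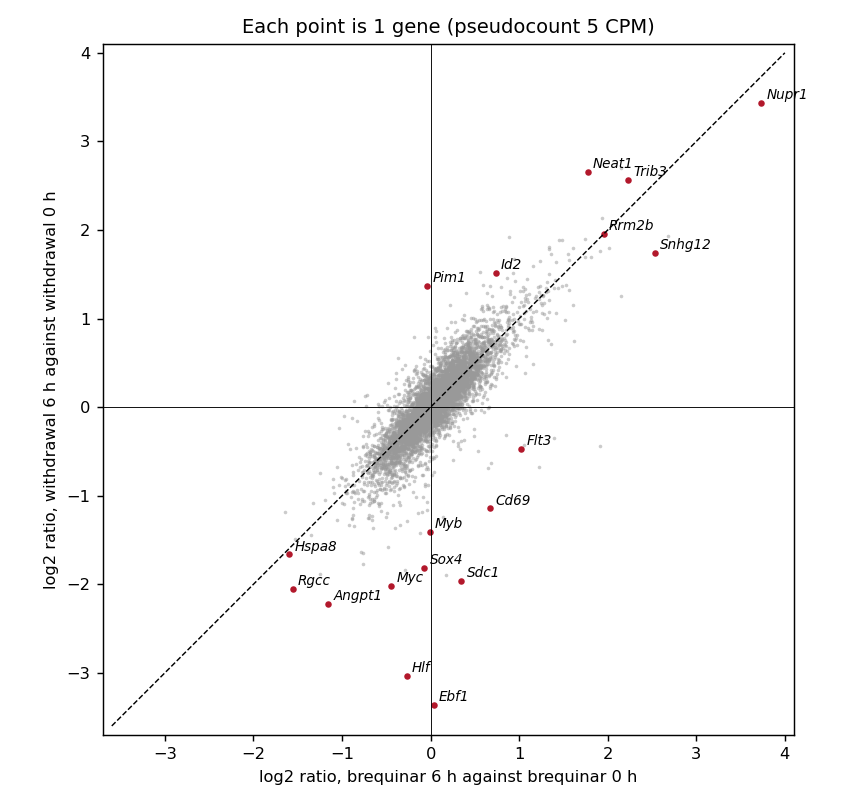
Log2 ratio at 6 h of withdrawal (vertical axis) against that at 6 h of brequinar (horizontal axis), each against its own 0 h culture, for 6023 genes (grey) with named genes in red and the line of equality dashed. Nupr1, Trib3 and Rrm2b lie near the line in the upper right, while Ebf1 and Hlf lie below -3 on the vertical axis and near 0 on the horizontal one.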

How the data were processed

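Spliced UMI counts of 10x v3 single-cell RNA-seq were deposited by the authors as raw counts in 1 matrix for 2 runs, with a MULTI-seq call per cell. Kallisto 0.46, bustools 0.39.4 and Cell Ranger are named in the submitters' processing notes without their roles, and the annotation build is not given in the sources used here. Of 54838 gene IDs 54723 matched a symbol, and IDs of 1 symbol were summed. Doublet (2777) and negative (265) calls were left out, and the unspliced matrix was not used. The 12540 cells were summed per culture and scaled to CPM with Python 3.11.15, numpy 2.4.6, pandas 2.3.3 and scipy 1.17.1. Ratios carry exact conditional (Clopper-Pearson) 95% intervals. With 1 culture per condition there is no test. Log2 ratios use a pseudocount of 5 CPM. Genes named are the 15 highest and 15 lowest at 50 CPM or more in either culture, up to 4 per list and direction, and a fixed set (such as Kit, Cd34 and Asns). Others were chosen after their values were seen. Some genes that the rule names are not reported here. The members and lists were chosen with earlier results of these data known. Phase scores are from scanpy 1.11.5 in cells thinned to 3000 UMIs. Doublets were those of the authors' calls, and no other caller was run. The ratio calculation was tested on simulated data. Alternatives covered the reference culture, scaling (edgeR 4.0.16 TMM), filters, fold, cell quality, cell weighting, phase and free RNA.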

Additional observations from a re-analysis of the deposited data

Results flagged for a closer look

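Of the 480 genes at least 1.5-fold lower after 6 h of withdrawal, 4 were at least 1.5-fold higher after 6 h of brequinar, each against its own 0 h culture. The difference between the treatments was not tested, since each has 1 culture at 6 h. Cd69, an early activation gene of leukocytes, was at 0.444 of its 0 h level after withdrawal and 1.60-fold with brequinar. Dab2, an endocytic adaptor gene, was at 0.561 and 2.55-fold. Cd33, a myeloid surface lectin gene, was at 0.606 and 1.59-fold. Creb1, the cAMP response factor gene, was at 0.617 and 1.65-fold. No gene went the opposite way.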

How the results depend on the processing

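Each condition is 1 culture, so no culture could be left out in turn and the intervals cover counting error only. No paired analysis was possible because each condition is 1 culture and the 2 runs share 1 matrix. The 728 higher genes became 1154 with a floor of 10 CPM, 330 with 50 CPM and 201 at 2-fold, and the 480 lower ones 110 at 2-fold. Under the other alternatives 574 to 965 were higher and 327 to 593 lower. With a phase boundary of 0.05 the G1-like share at 6 h was 26.1% and the S share 30.8%. The share of cells with a UMI of Spi1, 6 h minus 0 h, was -2.56 percentage points without thinning, opposite to the thinned one. No ratio past 1.5-fold changed direction under these alternatives, though 62 of 522 ratio values moved beyond their counting interval. Counts over lists were followed only in their main direction, so they could not show a reversal, and 44 of 372 changed by more than 1.5 times. Some list medians changed sign, such as that of the neutrophil maturation genes, 0.21 in the main setting and -0.18 with 0 h phase shares. S100a9 was 1.53-fold higher against the other 0 h culture, and S100a8 was at 0.819 with 0 h phase shares and 3.55-fold with free RNA removed. Irf8 had 5 and 4 counts, too few to give a direction.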

Other observations

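Some groups are not described above. Of 13 measured histone genes 2 were higher, Hist1h2bc and Hist1h1c, whose transcripts can be polyadenylated outside S phase, and none lower. Of 28 measured genes of the respiratory chain and mitochondria 1 was higher (Ndufs1) and 3 lower (Idh3a, Cycs and Atp5g1). The 13 listed genes of the mitochondrial genome, 11 of them measured, summed to 32972 CPM at 0 h and 37786 CPM at 6 h. Of 26 measured leukocyte adhesion and actin genes 2 were higher (Lcp1 and Itgal) and 2 lower (Cd44 and S100a10). Among 5 measured cholesterol efflux genes Abcg1 was 1.96-fold higher. Of 25 measured oxidative stress genes 4 were higher, with the heme oxygenase gene Hmox1 at 2.44-fold, and 1 was lower, Slc7a11. The dendritic cell list held 3 measured genes, none past the threshold.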
